A study of Mus musculus with 8 samples.

Results

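This report describes the genes of the Wnt pathway that act at or near the cell surface in the mouse aortic tree, together with the axins, beta-catenin and the LEF/TCF factors. Members were taken by symbol from the deposited count table: every numbered Wnt, Fzd, Dkk, Sfrp, Axin and Rspo gene, and Lrp5, Lrp6, Lgr4, Lgr5, Lgr6, Wif1, Sost, Frzb, Ctnnb1, Lef1 and Tcf7. The rule found 54 of the 48587 genes in the table: 19 Wnt ligands, 12 Frizzled and Lrp receptors, 11 secreted antagonists, 7 R-spondins and Lgr receptors and 5 intracellular genes. The series compared 4 groups of 2 RNA-seq libraries from whole aortic trees of mice. They were Tet2 knockout in vascular smooth muscle cells (VSMC) with VitD, the same knockout with vehicle, wild type (WT) litter controls with VitD, and WT with vehicle. Vitamin D (VitD in the labels) at overload is a standard means of calcifying rodent arteries, and the series title names osteogenic change of smooth muscle and medial calcification as its subject. Dose, duration, age, sex, the Cre line, the deleted part of Tet2 and the number of mice per library are not stated in these sources. No label ties a library to its own mouse, and a p-value therefore reflects only how much these libraries differ from each other, which may be technical spread.

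Wnt proteins are secreted, lipid-carrying ligands that bind Frizzled receptors, and in the canonical branch Lrp5 or Lrp6 as well. Binding stops the axin-based destruction complex from degrading beta-catenin (Ctnnb1), which then acts in the nucleus with LEF/TCF factors. Sfrp proteins, Frzb and Wif1 bind the ligands outside the cell, and Dkk1, Dkk2 and sclerostin (Sost) act on the Lrp co-receptors. R-spondins acting through Lgr receptors keep Frizzled on the surface. In bone the canonical branch promotes osteoblast formation, and the same genes have been studied in calcifying arteries. Tet2 encodes a dioxygenase that oxidises methylated cytosine in DNA, which in mammals lies mostly at CG pairs.

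The stretches of 250 bases before the RefSeq transcription start are shown for the 4 antagonists with the largest average VitD differences, with CG pairs in capitals because these are the pairs that carry cytosine methylation. They are RefSeq sequences of GRCm38.p6, read 5′ to 3′ on the gene's own strand. Wif1 lies at chr10:121033754-121034003 on the plus strand, Sfrp2 at chr3:83766071-83766320 on the plus strand, Dkk2 at chr3:132085042-132085291 on the plus strand and Frzb at chr2:80447397-80447646 on the minus strand. GENCODE M21, the source of the gene coordinates given with the results, places the start of Wif1 and of Frzb further upstream, so that the end of the Wif1 stretch and nearly all of the Frzb stretch lie inside the gene by that annotation.
Wif1: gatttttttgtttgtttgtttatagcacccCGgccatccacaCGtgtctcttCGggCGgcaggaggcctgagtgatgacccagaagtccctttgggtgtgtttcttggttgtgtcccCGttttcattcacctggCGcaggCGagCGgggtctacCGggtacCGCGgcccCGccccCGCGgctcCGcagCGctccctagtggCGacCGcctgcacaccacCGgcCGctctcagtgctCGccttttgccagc
Sfrp2: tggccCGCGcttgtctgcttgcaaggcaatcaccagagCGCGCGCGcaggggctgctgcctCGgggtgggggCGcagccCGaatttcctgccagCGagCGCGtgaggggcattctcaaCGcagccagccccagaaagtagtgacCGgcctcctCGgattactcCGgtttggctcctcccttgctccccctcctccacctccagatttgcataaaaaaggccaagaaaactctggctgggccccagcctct
Dkk2: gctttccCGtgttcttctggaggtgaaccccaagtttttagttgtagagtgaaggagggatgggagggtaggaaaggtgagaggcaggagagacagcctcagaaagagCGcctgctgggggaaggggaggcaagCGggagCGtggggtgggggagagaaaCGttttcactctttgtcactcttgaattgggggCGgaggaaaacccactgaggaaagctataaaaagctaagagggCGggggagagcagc
Frzb: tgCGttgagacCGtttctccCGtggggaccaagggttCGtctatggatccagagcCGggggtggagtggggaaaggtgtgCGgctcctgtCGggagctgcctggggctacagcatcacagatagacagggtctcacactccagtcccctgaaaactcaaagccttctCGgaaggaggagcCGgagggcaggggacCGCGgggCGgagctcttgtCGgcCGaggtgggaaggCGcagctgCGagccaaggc
These stretches held 21 CG pairs in Wif1, 16 in Sfrp2, 7 in Dkk2 and 16 in Frzb. Of the 54 members 36 had a window in the RefSeq table, with 44 windows in all and a median of 20.5 CG pairs (range 4 to 48), against a median of 6 over all 32851 windows of the table. The letters CTTTGA, the core of the LEF/TCF motif, stood on either strand in 6 of the 44 member windows (13.6%), against 13.8% of all windows. In Frzb the letters occurred once, on the opposite strand. No methylation was measured in the files used here.

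Library totals were 15679274 to 22332149 counts. Members took 0.321% to 0.473% of them. Levels are given as CPM, counts scaled to a common library size with TMM normalisation, in the order replicate 1, replicate 2. The libraries labelled Tet2 knockout, here called KO libraries, had on average no less Tet2 RNA than WT: 26.6 and 37.6 CPM in KO VitD against 18.3 and 20 CPM in WT VitD libraries, and 42.0 and 35.2 CPM in KO vehicle against 35.8 and 32.2 CPM in WT vehicle libraries. The genotype is therefore carried over as labelled. The numbers in the library names fall into a lower and a higher range, which the labels do not call batches. WT VitD 1 and 2 and KO VitD 1 have the higher numbers, and KO VitD 2 and all 4 vehicle libraries the lower, so in WT number range and VitD cannot be told apart. The share of counts in ribosomal protein genes was 4.38% to 4.94% in the higher range and 1.92% to 2.36% in the lower. Smooth muscle markers were abundant in all libraries: Acta2 lay between 7567 and 14689 CPM.

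Of the 54 members 41 passed the filter on low counts, of 16194 genes in all. The 13 that did not were the ligands Wnt1, Wnt3, Wnt3a, Wnt7a, Wnt7b, Wnt8a, Wnt8b and Wnt10a, the receptor Fzd10, the antagonists Dkk1 and Dkk4, and Lgr5 and Rspo4. Wnt3 and Dkk4 had 0 counts in every library, which allows up to 0.132 to 0.199 CPM per library by counting error alone. Dkk1, a Wnt target and Lrp antagonist, reached 0.66 CPM at most. Lef1 was over the level of the filter in 4 of the 8 libraries and Wnt4 in 6.

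Levels per length of exon spread widely within each role. Averaged over all libraries, Sost was highest at 288 CPM per kb, followed among antagonists by Dkk3 at 111, Sfrp1 at 70.4 and Sfrp2 at 56.6 CPM per kb, while Wif1 stood at 8.73, Dkk2 at 2.21 and Sfrp5 at 1.70 CPM per kb. Beta-catenin stood at 163 CPM per kb. The most abundant Frizzled receptors were close together, with Fzd1 at 28.8, Fzd4 at 27.9, Fzd7 at 26.3 and Fzd2 at 21.7 CPM per kb, and the lowest tested was Fzd3 at 0.190 CPM per kb. No ligand reached these 4 receptors: Wnt16 was highest at 10.5 CPM per kb, followed by Wnt9a at 5.57, Wnt5a at 4.60 and Wnt2 at 2.03. Lgr6 at 34.2 and Lgr4 at 5.77 CPM per kb were the most abundant of the R-spondin receptors, and Rspo1 at 3.78 CPM per kb the most abundant R-spondin. In whole tissue, fewer cells of a type and less RNA per cell cannot be told apart.

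**Figure D1:**
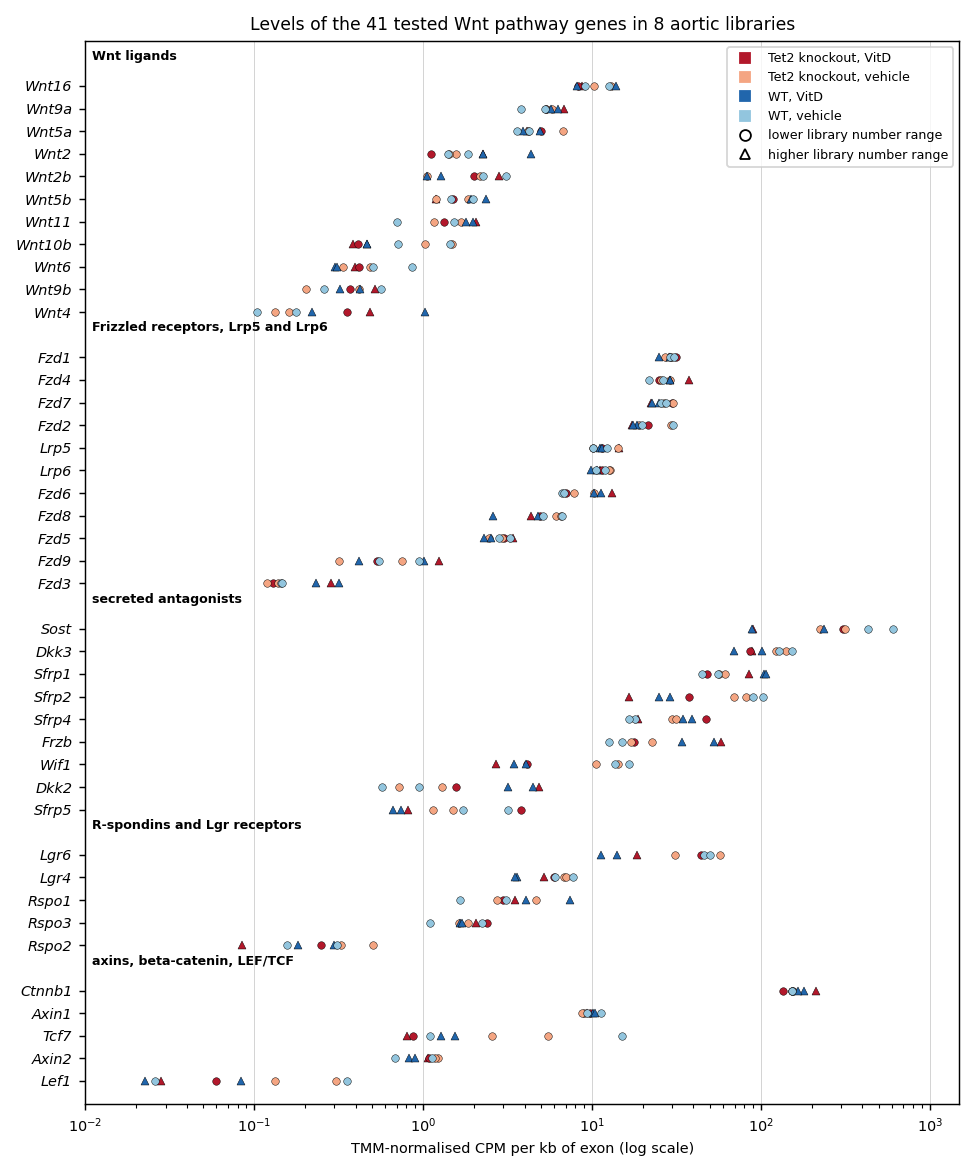
Level of the 41 tested genes in each of the 8 libraries, in TMM-normalised CPM per kb of exon on a log axis, grouped by role and ordered by mean level. Colours mark the 4 groups and shapes the library number range; Sost and Ctnnb1 lie highest (means 288 and 163 CPM per kb), and the most abundant ligand, Wnt16, averages 10.5 CPM per kb.

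VitD against vehicle, averaged over both genotypes, set 4 VitD libraries against 4 vehicle libraries and asked which genes moved with the treatment in the aorta. Of the secreted antagonists 3 fell (Wif1, Sfrp2, Dkk3) and 3 rose (Dkk2, Frzb, Sfrp1), both Lgr receptors tested fell and no Frizzled or Lrp receptor passed the test. Among ligands Wnt10b fell and Wnt4 rose, and of the intracellular genes Tcf7 fell. In edgeR's quasi-likelihood test with Benjamini-Hochberg adjustment over all genes, 11 of 41 members were called at an adjusted p under 0.05 (26.8%), against 25.5% of all genes tested, so the share of members called was near the background. The members' median log2 fold change was -0.04, and that of all genes -0.03. Wif1, Sfrp2, Dkk3, Lgr4, Wnt10b and Fzd8 were lower in every VitD library than in every vehicle library, and Dkk2 and Wnt4 were higher; these 8 of 41 compare with 24.2% of all genes.

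The largest fall among antagonists was that of Wif1, a secreted protein that binds Wnt ligands directly (chr10:121033960-121100650 by GENCODE M21, mm10, plus strand). It stood at 6.58 and 9.99 CPM in KO VitD libraries against 25.8 and 34.9 CPM in KO vehicle libraries, and at 9.93 and 8.38 CPM in WT VitD libraries against 40.5 and 33.4 CPM in WT vehicle libraries. All 4 VitD libraries lay under 10 CPM and all 4 vehicle libraries above 25, whatever the genotype or number range. The fall averaged -1.94 on the log2 scale (SE 0.190, adjusted p = 0.000852). Sfrp2, which also binds Wnt ligands (chr3:83766321-83774316, plus strand), stood at 35.7 and 81.5 CPM in KO VitD libraries against 150.5 and 176 CPM in KO vehicle libraries, and at 53.7 and 62.9 CPM in WT VitD libraries against 194 and 222 CPM in WT vehicle libraries. No VitD library reached the lowest vehicle library, and KO VitD 2 was the highest of the VitD libraries. Its log2 fold change averaged -1.65 (SE 0.238, adjusted p = 0.00415). Exons of Sfrp2 overlap Gm26771 on the opposite strand, and no source used here states the strand setting of the counting, so reads of the pair cannot be told apart.

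Dkk3, a Dickkopf relative whose action on Wnt signals varies between tissues (chr7:112116017-112159057, minus strand), stood at 296 and 289.7 CPM in KO VitD libraries against 473 and 412 CPM in KO vehicle libraries, and at 341 and 233 CPM in WT VitD libraries against 431 and 514 CPM in WT vehicle libraries. The 4 VitD libraries were all lower than the 4 vehicle libraries, by a smaller margin than for Wif1 and Sfrp2. The fall of Dkk3 averaged -0.66 on the log2 scale (SE 0.166, adjusted p = 0.0227). This call ended without KO vehicle 1 or 2, WT vehicle 1 or 2, or WT VitD 2, each left out alone (adjusted p up to 0.106).

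The antagonist that rose most was Dkk2, which acts on Lrp6 (chr3:132085292-132180304, plus strand). It stood at 18.1 and 5.85 CPM in KO VitD libraries against 4.79 and 2.68 CPM in KO vehicle libraries, and at 11.8 and 16.7 CPM in WT VitD libraries against 2.11 and 3.53 CPM in WT vehicle libraries. The VitD libraries were all higher than the vehicle libraries, but KO VitD 2, the one VitD library of the lower number range, lay closest to them. Dkk2 was 4.01-fold higher with VitD on average (log2 2.01, SE 0.388, adjusted p = 0.0106).

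Frzb (Sfrp3), a ligand-binding antagonist first known from cartilage (chr2:80411970-80447625, minus strand), stood at 189 and 57.8 CPM in KO VitD libraries against 73.8 and 55.1 CPM in KO vehicle libraries, and at 111 and 171 CPM in WT VitD libraries against 48.8 and 40.7 CPM in WT vehicle libraries. The 3 VitD libraries of the higher number range were above all vehicle libraries, and KO VitD 2 lay within the vehicle range. The rise averaged 1.30 on the log2 scale (SE 0.333, adjusted p = 0.0242). Sfrp1, another ligand-binding antagonist, had the same arrangement of libraries and stood at 373 and 209.8 CPM in KO VitD libraries against 248 and 268 CPM in KO vehicle libraries, and at 456 and 467 CPM in WT VitD libraries against 244 and 197 CPM in WT vehicle libraries. The rise of Sfrp1 averaged 0.62 on the log2 scale (SE 0.195, adjusted p = 0.0458). Frzb was called in 3 of the 8 fits that left out 1 library (without KO VitD 1, KO VitD 2 or WT VitD 1; adjusted p up to 0.0910 in the others), and Sfrp1 only in the fit without KO VitD 2 (up to 0.141); with the replicate number as a block Sfrp1 was not called (0.0545).

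Sost, which encodes the osteocyte product sclerostin, was the most abundant member per length but was not called. It stood at 186 and 637 CPM in KO VitD libraries against 649 and 462 CPM in KO vehicle libraries, and at 488 and 184 CPM in WT VitD libraries against 896 and 1252 CPM in WT vehicle libraries. In WT both VitD libraries were lower than both vehicle libraries, and among the KO libraries the groups overlapped. Over both genotypes its log2 fold change was -1.05 (SE 0.413, adjusted p = 0.0889). Of the osteoblast and chondrocyte markers Bglap, Bglap2 and Sp7 were at 0 in at least 1 library, Bglap did not exceed 0.223 CPM, and 2 of the 7 markers were tested. Ibsp was not called, and Acan, the cartilage proteoglycan aggrecan, rose (average log2 fold change 1.13, SE 0.242, adjusted p = 0.0139). Acan stood at 27.3 and 64.8 CPM in KO VitD libraries against 26.3 and 21.4 CPM in KO vehicle libraries, and at 70.3 and 68.9 CPM in WT VitD libraries against 29.6 and 26.5 CPM in WT vehicle libraries. KO VitD 1 lay within the vehicle range for Acan. The summed CPM of 6 smooth muscle markers was 19808 and 27429 in KO VitD libraries against 29084 and 27238 in KO vehicle libraries. In WT the sums were 22011 and 14776 with VitD against 28407 and 29260 with vehicle. On average 2 of these 6 markers were called lower and 0 higher. The part of either list in the Sost values was not tested. Sfrp4 (log2 0.61, adjusted p = 0.101) and Sfrp5 (log2 -0.50, adjusted p = 0.438) completed the 9 antagonists tested.

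**Figure D2:**
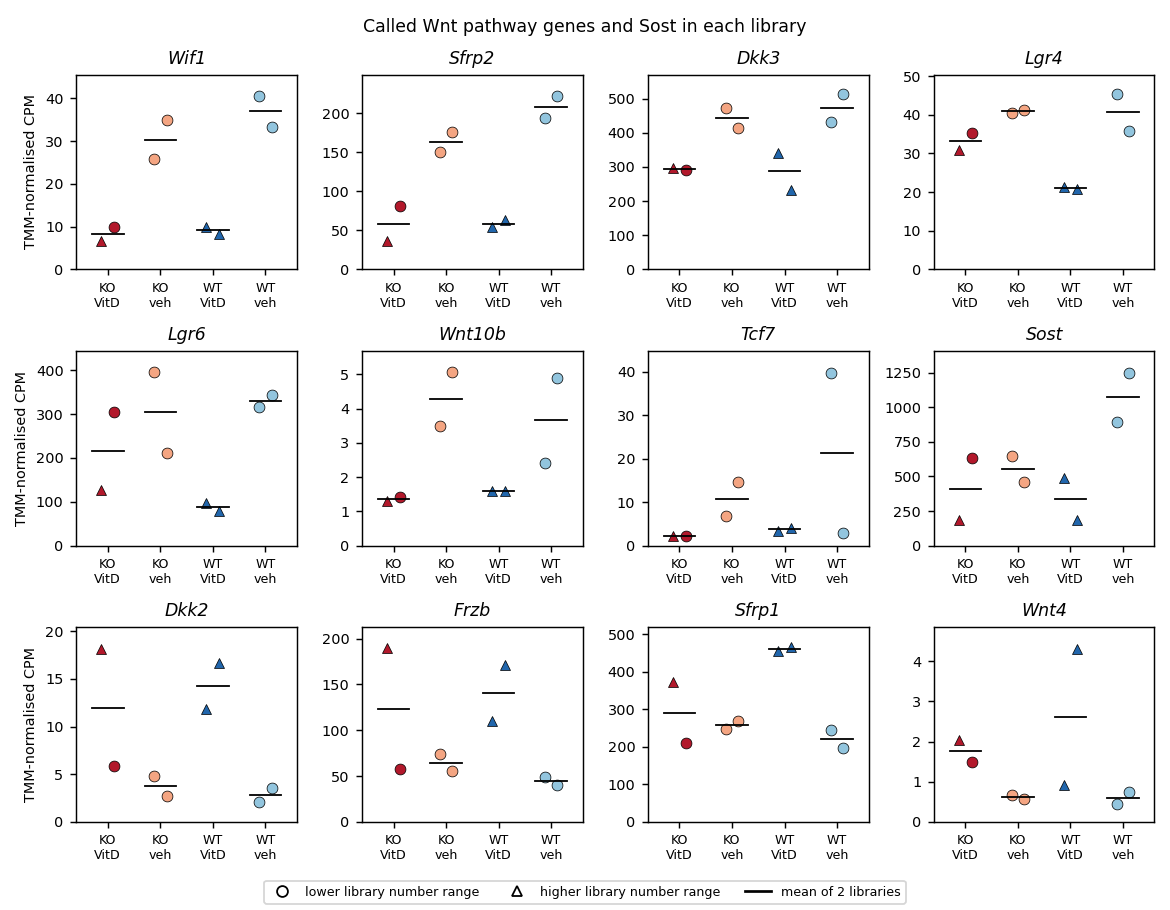
TMM-normalised CPM of the 11 members called in the average VitD comparison, and of Sost, in each library, by group (KO VitD, KO vehicle, WT VitD, WT vehicle, left to right), with bars at the mean of 2 libraries. Triangles mark the higher library number range; for Wif1, Sfrp2, Dkk3, Lgr4, Wnt10b, Dkk2 and Wnt4 the circle among the VitD libraries lies on the VitD side, and for Frzb, Sfrp1 and Lgr6 it lies among the vehicle libraries.

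The receptors of R-spondin were both lower with VitD. Lgr4, which is widely expressed and binds R-spondins in many tissues (chr2:109917647-110014257, plus strand), stood at 30.9 and 35.3 CPM in KO VitD libraries against 40.6 and 41.3 CPM in KO vehicle libraries, and at 21.4 and 20.7 CPM in WT VitD libraries against 45.4 and 35.8 CPM in WT vehicle libraries. The WT VitD libraries were lowest, and the KO VitD libraries lay between them and the vehicle libraries, with KO VitD 2 just under the lowest vehicle library. Its log2 fold change averaged -0.63 (SE 0.129, adjusted p = 0.0124); the call ended without WT VitD 2 (adjusted p = 0.0668).

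Lgr6, a related receptor with a narrower range of tissues (chr1:134983301-135105276, minus strand), stood at 127 and 304 CPM in KO VitD libraries against 396 and 212 CPM in KO vehicle libraries, and at 96.4 and 77.9 CPM in WT VitD libraries against 317 and 344 CPM in WT vehicle libraries. The 3 VitD libraries of the higher number range were the lowest, and KO VitD 2 lay within the vehicle range. Lgr6 had an average log2 fold change of -1.21 (SE 0.292, adjusted p = 0.0200), called in 3 of the 8 fits that left out 1 library, without KO VitD 1, KO VitD 2 or KO vehicle 2 (adjusted p up to 0.0864 in the others). The summed CPM of 6 smooth muscle markers was also lowest in those 3 VitD libraries, at 19808 in KO VitD 1, 22011 in WT VitD 1 and 14776 in WT VitD 2, against 27238 to 29260 in the other 5 libraries. Of the 6 markers 2 fell on average, and none was at 0. Tagln did not follow the sum (average log2 fold change 0.15). It stood at 6373 CPM in KO VitD 1, 6618 in WT VitD 1 and 4573 in WT VitD 2, against 4601 to 5926 in the other 5 libraries. The part of these markers in the Lgr6 result was not tested. The R-spondins tested were Rspo1, Rspo2 and Rspo3, and none was called (average log2 fold changes 0.53, -0.62 and 0.18).

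Of the 11 ligands tested, 2 were called. Wnt10b, which drives osteoblast formation in bone, stood at 1.30 and 1.41 CPM in KO VitD libraries against 3.50 and 5.08 CPM in KO vehicle libraries, and at 1.59 and 1.58 CPM in WT VitD libraries against 2.42 and 4.90 CPM in WT vehicle libraries. The VitD libraries were closely grouped and all lower than the vehicle libraries (average log2 fold change -1.43, SE 0.317, adjusted p = 0.0153). The call ended without KO vehicle 2 (adjusted p = 0.0590) or WT VitD 2 (0.0670).

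Wnt4, a ligand of developing kidney and gonad, stood at 2.05 and 1.5 CPM in KO VitD libraries against 0.675 and 0.558 CPM in KO vehicle libraries, and at 0.927 and 4.30 CPM in WT VitD libraries against 0.435 and 0.741 CPM in WT vehicle libraries. WT VitD 2 was the highest, and all VitD libraries were above all vehicle libraries (average log2 fold change 1.83, SE 0.517, adjusted p = 0.0327). Its counts ran from 7 to 76 per library, and the call stood in 2 of the 8 fits that left out 1 library, without KO VitD 2 or WT VitD 1 (adjusted p up to 0.171 in the others); it also ended with limma voom (adjusted p = 0.108). In WT VitD 2 the summed CPM of 6 mesothelial markers was 202.2 and of 6 skeletal muscle markers 418.5, the highest of all libraries for both lists (29.6 to 107.8 and 12.3 to 96.2 in the other 7); no marker of either list was at 0, and the part of these in the Wnt4 result was not tested.

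The abundant ligands did not pass the test. Wnt16, made by bone and joint cells among others, stood at 38.1 and 36.2 CPM in KO VitD libraries against 56.8 and 45.1 CPM in KO vehicle libraries, and at 60.4 and 35.6 CPM in WT VitD libraries against 39.6 and 54.8 CPM in WT vehicle libraries. Wnt9a stood at 22.7 and 17.8 CPM in KO VitD libraries against 17.9 and 19.4 CPM in KO vehicle libraries, and at 19.1 and 21.1 CPM in WT VitD libraries against 12.7 and 17.6 CPM in WT vehicle libraries. For both ligands the VitD and vehicle libraries overlapped, with average log2 fold changes of -0.22 (SE 0.191) and 0.26 (SE 0.162). The other 7 ligands tested, Wnt2, Wnt2b, Wnt5a, Wnt5b, Wnt6, Wnt9b and Wnt11, had average log2 fold changes between -0.58 and 0.59.

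No Frizzled or Lrp receptor was called in any comparison of the reported fit. Among other settings, DESeq2 called Fzd8 on average (adjusted p = 0.0446), and fitting only the WT groups called Fzd6 in WT (adjusted p = 0.0197). With no filter, Fzd6 and Fzd8 were called both in WT and on average. Some of the fits that left out 1 library also called Fzd3, Fzd6 or Fzd8. Fzd1 stood at 119.5 and 133 CPM in KO VitD libraries against 123 and 114 CPM in KO vehicle libraries, and at 105 and 122 CPM in WT VitD libraries against 122 and 128 CPM in WT vehicle libraries. Fzd4, which also serves norrin in vessels, stood at 252 and 167 CPM in KO VitD libraries against 194 and 174 CPM in KO vehicle libraries, and at 195 and 195 CPM in WT VitD libraries against 177 and 146 CPM in WT vehicle libraries. The VitD and vehicle libraries of Fzd1 overlapped (average log2 fold change -0.02, SE 0.120). For Fzd4 the 3 VitD libraries of the higher number range were above all vehicle libraries, and KO VitD 2 lay among the vehicle libraries. The margin was very narrow: WT VitD 1 and 2 stood at 194.7 and 194.6 CPM, and KO vehicle 1 at 194.4 CPM. The average log2 fold change of Fzd4 was 0.23 (SE 0.161). The receptors' average log2 fold changes ran from -0.57 for Fzd8, which was lower in all 4 VitD libraries (adjusted p = 0.0632), to 0.79 for Fzd3 (adjusted p = 0.104). Lrp5 and Lrp6 were at 0.04 (SE 0.155) and -0.15 (SE 0.118).

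Inside the cell, the destruction-complex genes and beta-catenin did not pass the test. Ctnnb1 stood at 1098 and 705 CPM in KO VitD libraries against 804 and 791 CPM in KO vehicle libraries, and at 934 and 865 CPM in WT VitD libraries against 798 and 795 CPM in WT vehicle libraries; its exons overlap Ulk4 on the opposite strand and Mir7090 on its own. Axin2, the feedback inhibitor often read as a gauge of canonical signalling, stood at 5.90 and 5.98 CPM in KO VitD libraries against 6.75 and 6.48 CPM in KO vehicle libraries, and at 4.57 and 4.92 CPM in WT VitD libraries against 3.79 and 6.27 CPM in WT vehicle libraries. The 4 VitD libraries of Axin2 lay within the range of its vehicle libraries (average log2 fold change -0.12, SE 0.221, adjusted p = 0.712). Exons of Axin2 overlap Gm11670 on the opposite strand. Axin1, the constitutive scaffold of the complex, lay between 33.4 and 43.3 CPM in all 8 libraries. For Ctnnb1 the average was 0.18 on the log2 scale (SE 0.175).

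Tcf7, a LEF/TCF factor best known from T cells, stood at 2.11 and 2.29 CPM in KO VitD libraries against 6.75 and 14.5 CPM in KO vehicle libraries, and at 3.38 and 4.08 CPM in WT VitD libraries against 39.6 and 2.91 CPM in WT vehicle libraries. WT vehicle 1 stood far above the others, and WT vehicle 2 lay among the VitD libraries. The average log2 fold change was -2.39 (SE 0.661, adjusted p = 0.0307), which without WT vehicle 1 became -0.95 (adjusted p = 0.0905); the call remained in 2 of the 8 fits that left out 1 library, without KO VitD 2 or WT vehicle 2, and ended with limma voom (adjusted p = 0.163). Lef1, its close relative, stood at 0.248 and 0.528 CPM in KO VitD libraries against 1.17 and 2.68 CPM in KO vehicle libraries, and at 0.199 and 0.736 CPM in WT VitD libraries against 3.11 and 0.228 CPM in WT vehicle libraries. The same 3 vehicle libraries were high for both genes (Lef1 average log2 fold change -2.02, SE 0.772, adjusted p = 0.0825). Exons of Lef1 overlap Gm43352 on the opposite strand. The summed CPM of 10 T cell and thymocyte markers was 5.09 and 4.31 in KO VitD libraries against 20.7 and 40.8 in KO vehicle libraries, and 8.34 and 7.59 in WT VitD libraries against 121.8 and 7.12 in WT vehicle libraries. In the average comparison 4 of the 8 markers tested fell; Rag2, Dntt and Ptcra were at 0 in some libraries, and Rag1 stood at 37.4 CPM in WT vehicle 1 and 0.057 CPM in WT vehicle 2. The part of these markers in the Tcf7 result was not tested.

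**Figure D3:**
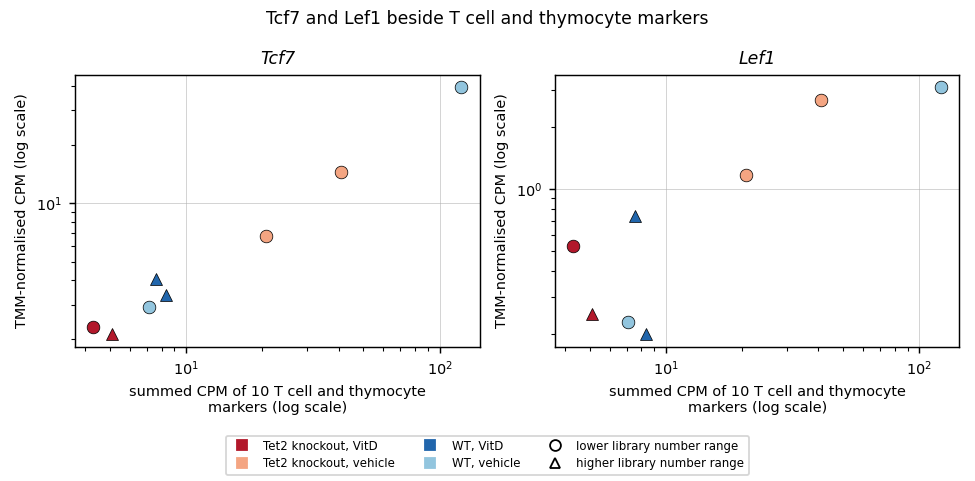
TMM-normalised CPM of Tcf7 (left) and Lef1 (right) against the summed CPM of 10 T cell and thymocyte markers in each of the 8 libraries, both axes on a log scale. The 3 vehicle libraries with marker sums of 20.7, 40.8 and 121.8 CPM are also the 3 highest for both genes.

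In WT alone, VitD against vehicle asked for the response of control aortas. Wif1, Sfrp2, Lgr4 and Lgr6 fell, and Dkk2, Frzb and Sfrp1 rose. These are 7 of 41 members (17.1%), against 20.1% of all genes tested, with 19 members at an unadjusted p under 0.05. On the log2 scale Wif1 changed by -2.01 (SE 0.269, adjusted p = 0.00510), Sfrp2 by -1.83 (SE 0.339, adjusted p = 0.0131), Lgr6 by -1.92 (SE 0.421, adjusted p = 0.0201) and Lgr4 by -0.95 (SE 0.184, adjusted p = 0.0148). Dkk2 stood 5.04-fold higher with VitD (SE of the log2 0.555, adjusted p = 0.0246), Frzb 3.15-fold (adjusted p = 0.0417) and Sfrp1 2.09-fold (adjusted p = 0.0312). Some members had log2 fold changes over 1 in size without passing the threshold. Sost stood at -1.68 (adjusted p = 0.0747), Sfrp5 at -1.81 (0.0856), Wnt2b at -1.20 (0.0551), Rspo1 at 1.27 (0.0637) and Sfrp4 at 1.10 (0.0583). With the number range as a covariate, Sfrp5 turned direction, to a log2 fold change of 0.40. That covariate takes its range term from the gap between KO VitD 1 and KO VitD 2 alone. The members' median was -0.07, and that of all genes -0.03. The calls depended on single libraries. Without WT VitD 2 no member was called, and without WT vehicle 1 only Wif1 was. Without WT VitD 1 the members called were Wif1, Wnt4 and Fzd8, and without WT vehicle 2 Wif1, Lgr4 and Tcf7. Wnt4, Fzd8 and Tcf7 were not among the 7 of the reported fit. Without KO VitD 1 or KO VitD 2 all 7 were called, with further members.

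Among KO libraries, VitD against vehicle asked whether the response was present under the Tet2 knockout label. Wif1 fell and was the 1 member called of 41 (2.44%), against 0.198% of all genes tested; 6 members had an unadjusted p under 0.05. Its log2 fold change was -1.87 (SE 0.268, adjusted p = 0.0419). This call stood in 1 of the 8 fits that left out 1 library, without KO VitD 2 (adjusted p up to 0.321 in the others), and also ended with limma voom (0.113), with the replicate number as a block (0.0610) and with only the KO libraries fitted (0.217), while DESeq2 called it with Sfrp2 and Dkk2. On the log2 scale Sfrp2 stood at -1.47 (SE 0.335, adjusted p = 0.139), Dkk2 at 1.68 (SE 0.541, adjusted p = 0.264), Wnt10b at -1.66 (SE 0.449, adjusted p = 0.199), Lgr6 at -0.50 (SE 0.407, adjusted p = 0.589) and Sfrp1 at 0.17 (SE 0.274, adjusted p = 0.787). The members' median was 0.08, and that of all genes -0.01. Between the 2 KO VitD libraries some members differed widely: Frzb stood at 189 CPM in KO VitD 1 and 57.8 CPM in KO VitD 2, and Sost at 186 and 637 CPM. Others were close, such as Dkk3 at 296 and 289.7 CPM.

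**Figure D4:**
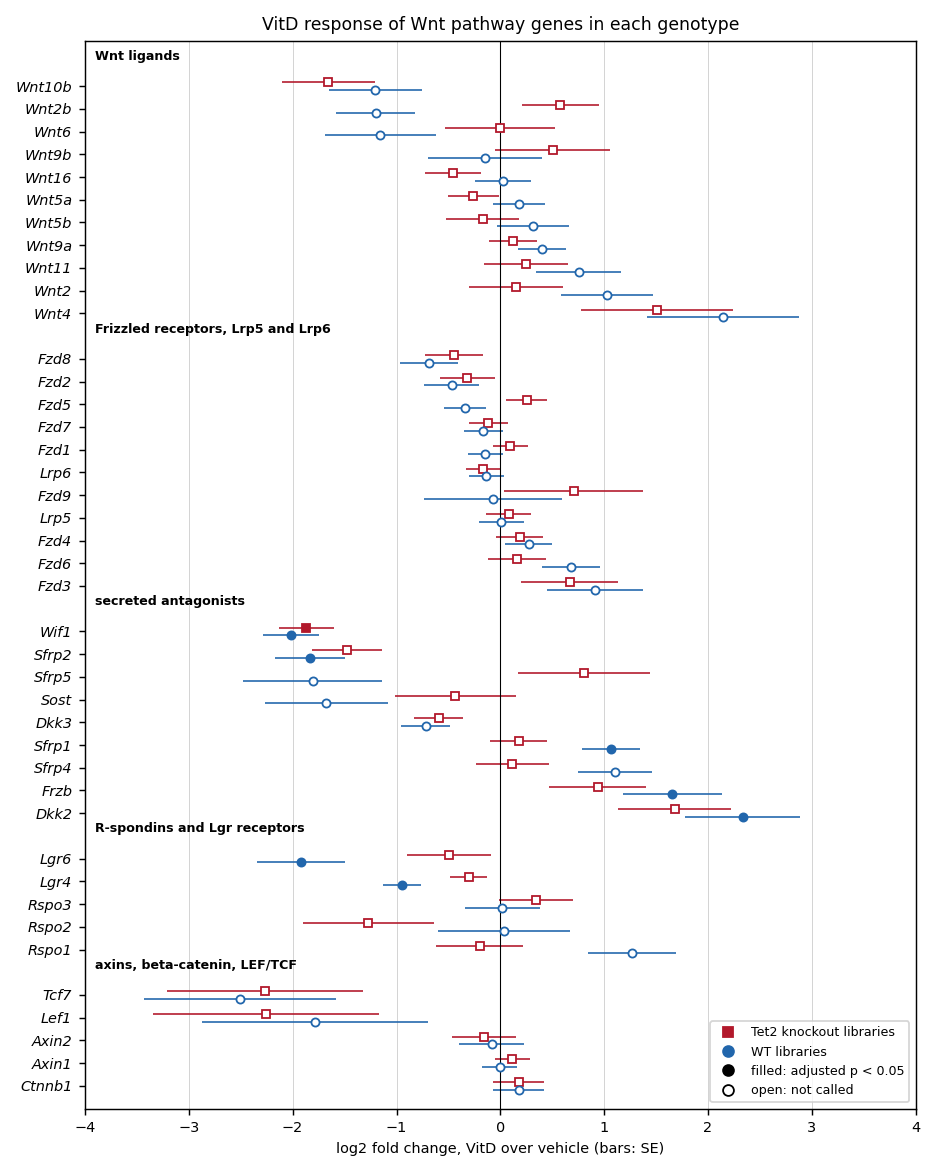
Log2 fold change of VitD over vehicle for the 41 tested members, in KO libraries (red squares) and in WT libraries (blue circles), with bars of 1 SE; filled symbols passed the adjusted threshold of 0.05. Wif1 is filled in both genotypes, and Dkk2, Frzb, Sfrp1, Sfrp2, Lgr4 and Lgr6 in WT.

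The KO label itself was set against WT under each treatment. With vehicle, no member was called (0% of all genes tested), and 1 member, Sfrp4, had an unadjusted p under 0.05 (log2 fold change 0.83, SE 0.357, adjusted p = 1). With VitD, no member was called either (0% of all genes), and 5 members had an unadjusted p under 0.05. On the log2 scale Lgr4 stood at 0.65 (SE 0.183), Lgr6 at 1.31 (SE 0.414), Sfrp5 at 1.72 (SE 0.669), Wnt2b at 1.04 (SE 0.380) and Sfrp1 at -0.66 (SE 0.275), with adjusted p from 0.457 to 0.467. DESeq2 called 0 members in both comparisons. Without KO VitD 1 the fit under VitD called 3 members, Lgr6 and Sfrp5 higher and Sfrp1 lower in KO libraries.

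The interaction asked whether the response to VitD differed between KO and WT libraries. No member was called (0% of all genes tested, 0 members by DESeq2), so the genes called in WT and not in KO libraries were not shown to differ between them. At an unadjusted p under 0.05 stood 6 members: Wnt2b (log2 1.78, SE 0.533), Sfrp5 (2.61, SE 0.926), Lgr4 (0.64, SE 0.257), Lgr6 (1.43, SE 0.578), Rspo1 (-1.46, SE 0.594) and Sfrp1 (-0.89, SE 0.388), each with an adjusted p of 0.794. Values of Wnt2b and Sfrp5 were looked at because of their place here, after the tests were seen. Wnt2b, a canonical ligand, stood at 11.9 and 8.40 CPM in KO VitD libraries against 4.42 and 9.10 CPM in KO vehicle libraries, and at 4.43 and 5.38 CPM in WT VitD libraries against 9.51 and 13.0 CPM in WT vehicle libraries. The WT VitD libraries were lower than the WT vehicle libraries, and the KO groups overlapped. Sfrp5, a ligand-binding antagonist of fat tissue, stood at 1.55 and 7.21 CPM in KO VitD libraries against 2.88 and 2.18 CPM in KO vehicle libraries, and at 1.26 and 1.42 CPM in WT VitD libraries against 3.29 and 6.10 CPM in WT vehicle libraries. KO VitD 2 was the highest of all libraries and KO VitD 1 among the lowest, so the KO groups overlapped. For Wif1 the difference of responses was 0.15 (SE 0.370) and for Sfrp2 0.36 (SE 0.465).

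The library number range moved with these results. KO VitD 2, the VitD library of the lower range, lay on the same side of all 4 vehicle libraries as the 3 VitD libraries of the higher range for 8 of 41 members and for 3915 of 16194 genes. With the range as a covariate, the range term rests only on the gap between KO VitD 1 and KO VitD 2. The KO response is then that of KO VitD 2, and the WT response is the WT difference less that gap. In that fit Wif1 had an average log2 fold change of -1.51 (adjusted p = 0.0800), Sfrp2 of -0.82 (0.202), Dkk2 of 0.68 (0.663), Lgr6 of -0.33 (0.797), Frzb of -0.11 (0.936) and Sfrp1 of -0.032 (0.980). None of the 11 members was called in that fit, and 1 other member was, Sfrp4 (log2 1.54, SE 0.180, adjusted p = 0.0106). Sfrp4, a ligand-binding antagonist, stood at 78.3 and 199 CPM in KO VitD libraries against 125 and 131 CPM in KO vehicle libraries, and at 146 and 164 CPM in WT VitD libraries against 74.8 and 69.3 CPM in WT vehicle libraries. KO VitD 2 was the highest of all libraries and KO VitD 1 lay among the lowest. The summed CPM of the macrophage markers was higher in VitD libraries of both ranges. It was 2092 and 1171 in KO VitD against 618.1 and 731.7 in KO vehicle libraries. In WT it was 2016 and 2441 with VitD against 457.7 and 476.4 with vehicle. On average 6 of 6 were called higher, and none was at 0. Csf1r was an exception by library, at 142.1 CPM in KO VitD 2 and 146.1 CPM in KO vehicle 2. Endothelial markers summed to 4357 CPM in KO VitD 1 and to 1270 in KO VitD 2, against 1644.5 and 1797.8 in KO vehicle libraries. In WT they summed to 2725 and 2366 CPM with VitD against 1441 and 1297 with vehicle, and 2 of 6 were called higher on average. The part of either list in the members' results was not tested.

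Beyond the members, other genes of the pathway were read from lists by function, and none was called in KO libraries alone, in either comparison of KO with WT or in the interaction. In the average VitD comparison 19 of the 68 tested genes of these lists were called (27.9%), near the 25.5% of all genes, so the counts that follow do not set the lists apart. In WT alone 18 of the 68 were called (26.5%), against 20.1% of all genes. Among genes that export or hold Wnt ligands, 3 of 6 tested fell on average and none rose: the cell-surface glypicans Gpc3 (log2 -0.90, SE 0.138, adjusted p = 0.00482), Gpc4 (-0.64, adjusted p = 0.0151) and Gpc6 (-1.31, adjusted p = 0.00375). Gpc6 stood at 81.5 and 136 CPM in KO VitD libraries against 239 and 225 CPM in KO vehicle libraries, and at 79.2 and 66.6 CPM in WT VitD libraries against 236 and 187 CPM in WT vehicle libraries, with no overlap. Of 7 other receptors, Ptk7 rose (log2 1.25, adjusted p = 0.0480) and Znrf3, a ligase that removes Frizzled from the surface, fell (-0.60, adjusted p = 0.0463). Of 12 relay and destruction-complex genes 2 fell, Dvl1 (-0.51) and Dvl3 (-0.82), which pass the signal on from Frizzled. Of 11 nuclear partners 1 rose, the beta-catenin inhibitor Ctnnbip1 (log2 0.78, adjusted p = 0.0162), and 2 fell, Pygo1 (-0.79) and Tle2 (-1.43). In WT alone Ctnnbip1, Tle2, Pygo1 and Tcf7l2 were called, 1 higher and 3 lower. Of 10 planar polarity genes 3 fell, Celsr1 (-0.62), Celsr2 (-1.32) and Prickle3 (-0.78), and none rose.

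Among 7 other modulators Cthrc1 and Shisa3 rose and none fell. Cthrc1, a secreted collagen triple helix protein of injured arteries, stood at 19.0 and 11.6 CPM in KO VitD libraries against 4.36 and 4.30 CPM in KO vehicle libraries, and at 25.2 and 66.9 CPM in WT VitD libraries against 2.73 and 1.82 CPM in WT vehicle libraries, with no overlap (average log2 fold change 3.08, SE 0.340, adjusted p = 0.00149). Of 15 genes known in other tissues as beta-catenin targets, Myc (log2 2.12, SE 0.205, adjusted p = 0.000847), Fosl1 (1.43, SE 0.211, adjusted p = 0.00444) and Bmp4 (1.0, SE 0.286, adjusted p = 0.0340) rose, and Tnfrsf19 (-1.72, SE 0.410, adjusted p = 0.0189) fell. The other 11, among them Nkd1 (log2 -0.31, adjusted p = 0.264) and Ccnd1 (0.48, adjusted p = 0.110), were not called. Myc and Fosl1 also respond to many other signals.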

How the data were processed

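Poly-A enriched, stranded libraries were made from total RNA of the whole aortic tree, per the labels' protocols. The authors deposited unnormalised read counts by gene symbol. The submitters' processing notes name featureCounts 2.0.2, STAR 2.7.8a, Trimmomatic 0.39 and mm10; annotation release and strand setting are not stated. Groups and replicate numbers come from the sample titles. Coordinates and exon lengths come from GENCODE M21, in which 46378 of 48587 symbols, and 54 of 54 members, matched 1 gene.

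Counts were fitted with edgeR 4.0.16 in R 4.3.3: TMM, filterByExpr (minimum count 10), 1 mean per group over all 8 libraries, quasi-likelihood tests of 6 contrasts, and Benjamini-Hochberg adjustment over all 16194 genes called under 0.05. Each standard error (SE) was computed from a fold change and its F statistic. Libraries of a group differed beyond counting error (chi-square per degree of freedom 27.3 to 108.2), so each counts as 1. Limits for a count of 0 rest on 3 counts and cover counting error only. The procedure was tested on simulated counts.

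Alternatives were DESeq2 1.42.0 (size factors, test), upper quartile normalisation, limma 3.58.1 voom, a filter at 1 CPM in 2 libraries, no filter, the number range as a covariate, the replicate number as a block, fitting only the groups compared, and leaving out each library; removal of the trend with exon length was added after seeing the data. Members and gene lists were chosen with earlier results of these data known. Members given in every library are those called in any contrast, the 2 most abundant per length of each role, and Axin2, Lef1, Tcf7 and Ctnnb1; of the other lists, called genes are named, and Nkd1, Ccnd1 and the library values of Sfrp4, Sfrp5 and Wnt2b were chosen after their values were seen.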

Additional observations from a re-analysis of the deposited data

How the results depend on the processing

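With DESeq2 size factors, upper quartile normalisation or a filter of 1 CPM in 2 libraries, the counts of members called equalled those of the reported fit in all 6 contrasts. For VitD against vehicle in WT the count of 7 became 13 with the DESeq2 test, 12 with limma voom, 19 with no filter, 13 with only the groups compared and 1 with the covariate for number range, and ran from 0 to 13 with 1 library left out. For VitD in KO libraries the count of 1 became 3 with the DESeq2 test, 7 with no filter, and 0 with limma voom, the number range, only the groups compared or the exon length trend removed, and ran from 0 to 5 with 1 library left out. For KO against WT under VitD it was 2 with no filter and 0 to 3 with 1 library left out, and for the interaction 3 with no filter. The average count of 11 became 14 with the DESeq2 test, 9 with limma voom (without Wnt4 and Tcf7), 16 with no filter and 1 with the number range, and ran from 3 to 15 with 1 library left out; Wif1, Sfrp2 and Dkk2 were called in 8 of 8 of those fits. KO against WT under vehicle gave 0 members in every setting. The cause of these changes was not tested.

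Some fold changes turned direction. With the covariate for number range this held for 17 of 41 members on average, 12 in WT, 14 in KO libraries, 10 in KO against WT under VitD and 6 in the interaction; Frzb (WT and average) and Sfrp1 (average) were the called ones. In WT, range and VitD cannot be told apart, so this fit takes its range term from KO VitD 1 and KO VitD 2 alone. Its WT values are WT differences less the gap between those KO libraries, not WT responses freed of the range. In this fit WT log2 fold changes became -0.057 for Frzb, 0.10 for Sost, 0.40 for Sfrp5 and -0.46 for Ctnnb1, and average ones -0.32 for Ctnnb1, -0.11 for Frzb, -0.032 for Sfrp1 and 0.15 for Sost. With 1 library left out, Tcf7 in WT ran from -3.40 to 0.37 (without WT vehicle 1), and the average for Axin2 from -0.27 to 0.085 (without WT vehicle 2); neither was called with all libraries.

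Same-numbered libraries did not deviate together (correlations of deviations from group means -0.115 to 0.138 over 6 pairs of groups), so the numbers were not taken to pair samples. With the replicate number as a block, 8 members were called in WT, 0 in KO libraries, 0 in both comparisons of KO with WT and in the interaction, and 10 on average (without Sfrp1). With 2 libraries a group, the SEs of the average log2 fold changes ran up to 0.772 (Lef1).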
